A study of Mus musculus with 6 samples.

Results

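The transcripts described here encode 10 proteins that bind methylated lysine 36 of histone H3 (H3K36), namely Dnmt3a, Dnmt3b, Psip1, Msh6, Phf19, Mtf2, Morf4l1, Brpf1, Zmynd11 and Glyr1. They were found by symbol, and all 10 had a row among the 46095 genes of the count table. The cells were primary renal tubular epithelial cells (PTECs) from mice of C57 background at 10 weeks of age. All 6 libraries came from mice that carry KspCre, a Cre transgene driven by the kidney-specific cadherin (Cdh16) promoter, together with floxed VHL, so VHL deletion is common to both groups. Replicates 1, 2 and 4 were labelled VHL-KO, and replicates 2, 3 and 4 were labelled VHL-KO;SETD2-KO, whose mice carry floxed Setd2 as well. The comparison asks whether genes for readers of methylated H3K36 differ in level when Setd2 is deleted on top of VHL. Cells that did not express Cre keep both genes, and the sex of the sequenced mice was not used here.

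SETD2 is the enzyme that places the third methyl group on H3K36 along the bodies of transcribed genes. Proteins recognise methylated H3K36 through an aromatic cage. It is found in PWWP domains (Dnmt3a, Dnmt3b, Psip1, Msh6, Brpf1, Zmynd11 and Glyr1). It also occurs in the Tudor domains of the Polycomb-like proteins Phf19 and Mtf2, and in the chromodomain of Morf4l1. Through these readers H3K36 methylation is tied to DNA methylation of gene bodies, mismatch repair, restraint of cryptic transcription, Polycomb silencing and histone acetylation. The readers are proteins recruited through methylated H3K36. Their transcript levels therefore say nothing by themselves about how much of each protein sits on chromatin.

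Setd2 itself did not show the deletion that its label names. Its level was 71.3, 73.8 and 12.3 CPM (counts scaled to library size by the TMM method) for the VHL-KO label, in the order of replicates 1, 2 and 4. For the VHL-KO;SETD2-KO label it was 79.5, 57.3 and 89.5 CPM, in the order of replicates 2, 3 and 4, and this order is kept below, so the groups overlapped and the mean was higher under the label of the deletion (log2 fold change 0.52, SE 0.64, edgeR adjusted p = 0.787). The log2 fold change was 0.05 without VHL-KO-labelled replicate 4 (means of 72.6 and 75.4 CPM), so most of the difference rested on that library. Counts over a whole gene include exons outside a floxed stretch, and the deleted exons were not analysed here. The study itself reported lower SETD2 and H3K36 trimethylation in the renal tubules, by Western blotting, immunohistochemistry and RT-qPCR. Vhl, deleted in both groups, was read at 11.8 to 25.8 CPM. Every direction given for the members is therefore a difference between libraries by label.

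VHL-KO-labelled replicate 4 stood apart. Its Spearman correlation with the other libraries was 0.717 to 0.765, against up to 0.986 between other pairs, and mitochondrial genes took 11.3% of its counts against 25.9% to 36.4% elsewhere. Totals ran from 11168552 to 17883466 counts per library, where 3 counts correspond to 0.168 to 0.269 CPM. Proximal tubule markers were abundant in all 6 libraries, with summed levels of 11990 to 21970 CPM under VHL-KO and 5434 to 7697 CPM under VHL-KO;SETD2-KO, and 4 of the 9 passed an unadjusted edgeR p of 0.05 and 1.5-fold, all lower under VHL-KO;SETD2-KO. The 5 podocyte markers summed to 1435 to 2085 CPM under VHL-KO and to 4828, 1968 and 4289 CPM in replicates 2, 3 and 4 under VHL-KO;SETD2-KO, and 3 of them passed the same thresholds, all higher. The 6 endothelial markers summed to 1617 to 2108 CPM and to 5014, 1727 and 4265 CPM, with none past the thresholds. Of the tested markers of other kinds, 1 of 5 for thick limb and distal tubule and 2 of 7 for collecting duct were higher by the same thresholds, 1 of 7 for immune cells was lower, and 0 of 6 for fibroblasts and 0 of 8 for proliferation passed. Among all 14611 tested genes, 387 were higher and 684 lower by these thresholds. With VHL-KO-labelled replicate 4 left out, 6 proximal tubule markers and 1 immune marker (Adgre1) were lower. Higher were 4 podocyte, 3 collecting duct, 2 fibroblast (Acta2 and Col1a2) and 1 thick limb and distal tubule (Slc12a3) markers. Among all 15000 genes then tested, 1243 were higher and 1073 lower. The fibroblast median went from -0.78 to 0.70. No listed marker was at 0 in all libraries. In bulk RNA, fewer cells of a type and less RNA per cell cannot be told apart, and the part of cell makeup in the results below was not tested beyond the values given beside them.

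The starts of 4 members are shown because their transcripts were all low in the library that stood apart while differing in how they compared between the labels. Dnmt3b had the largest fold change, Morf4l1 was one of the pair whose groups did not overlap, Mtf2 had the lowest ratio of that library to the rest, and Msh6 was the member with the largest negative difference once that library was left out. Each line gives the 250 bases before a RefSeq transcription start, 5′ to 3′ on the gene's strand, with CpG dinucleotides in capitals. They lie at chr2:153649199-153649448 on the plus strand for Dnmt3b, chr9:90114821-90115070 on the minus strand for Morf4l1, chr5:108065424-108065673 on the plus strand for Mtf2 and chr17:87974800-87975049 on the plus strand for Msh6 (GRCm38.p6), outside annotated exons.
Dnmt3b: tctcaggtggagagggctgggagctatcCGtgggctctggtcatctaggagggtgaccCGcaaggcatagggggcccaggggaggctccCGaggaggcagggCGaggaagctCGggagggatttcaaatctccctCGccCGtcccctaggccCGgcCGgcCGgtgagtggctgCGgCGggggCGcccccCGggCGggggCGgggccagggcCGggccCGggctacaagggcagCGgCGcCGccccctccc
Morf4l1: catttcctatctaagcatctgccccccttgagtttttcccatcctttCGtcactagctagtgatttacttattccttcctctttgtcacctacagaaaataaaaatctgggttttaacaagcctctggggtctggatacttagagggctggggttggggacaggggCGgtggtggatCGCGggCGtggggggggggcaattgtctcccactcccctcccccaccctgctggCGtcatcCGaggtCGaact
Mtf2: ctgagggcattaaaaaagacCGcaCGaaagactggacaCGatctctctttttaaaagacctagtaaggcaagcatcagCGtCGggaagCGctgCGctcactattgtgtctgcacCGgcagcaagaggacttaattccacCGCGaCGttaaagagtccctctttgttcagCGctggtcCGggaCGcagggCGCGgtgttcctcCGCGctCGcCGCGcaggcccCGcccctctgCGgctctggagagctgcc
Msh6: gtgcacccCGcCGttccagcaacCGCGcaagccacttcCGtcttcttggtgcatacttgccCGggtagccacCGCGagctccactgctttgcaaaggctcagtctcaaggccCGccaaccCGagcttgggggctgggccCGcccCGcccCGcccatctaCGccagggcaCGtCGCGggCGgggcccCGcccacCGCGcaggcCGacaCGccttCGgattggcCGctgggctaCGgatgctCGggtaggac

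The table of RefSeq promoters held 15 starts for 9 of the members, and none was matched for Psip1. Dnmt3b had 21 CpGs in the stretch shown, Mtf2 23 and Msh6 27, whereas Morf4l1 had 8, with an observed-to-expected CpG ratio of 0.439 and a GC content of 54.0%. A CpG-rich start was taken as a ratio above 0.6 with a GC content above 50%. At least one such start was found for 8 of the 9 members, against 33.1% of all genes in the table. Morf4l1 was the exception, and Dnmt3b passed narrowly, with a ratio of 0.608. The table also held genes that were not tested here, whereas all members were tested. Mtf2 had a second start further downstream (chr5:108077915-108078164 for the 250 bases before it), not shown, with 2 CpGs, a ratio of 0.149 and a GC content of 46.8%.

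All 10 members passed the filter on low counts, and none was called. A call required an edgeR p below 0.05 together with a change of 1.5-fold or more. Unadjusted, 0 of the 10 members passed while 7.33% of the 14611 tested genes did. With p adjusted by the Benjamini-Hochberg method the shares were 0 of 10 and 0.00684%, which is 1 gene. Unadjusted, 0 members passed by DESeq2, against 10.6% of tested genes, and 0 by limma-voom, against 6.22%. Adjusted, 0 passed by limma-voom, against 0.00684% of genes, while DESeq2 gave an adjusted p to 1 member alone. No member reached an unadjusted p of 0.05 with any of the 3 tools when all libraries were used. The log2 fold changes ran from -0.12 to 1.01, with 7 above 0 and 3 below, and their median was 0.48 against 0.01 for all tested genes.

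**Figure D1:**
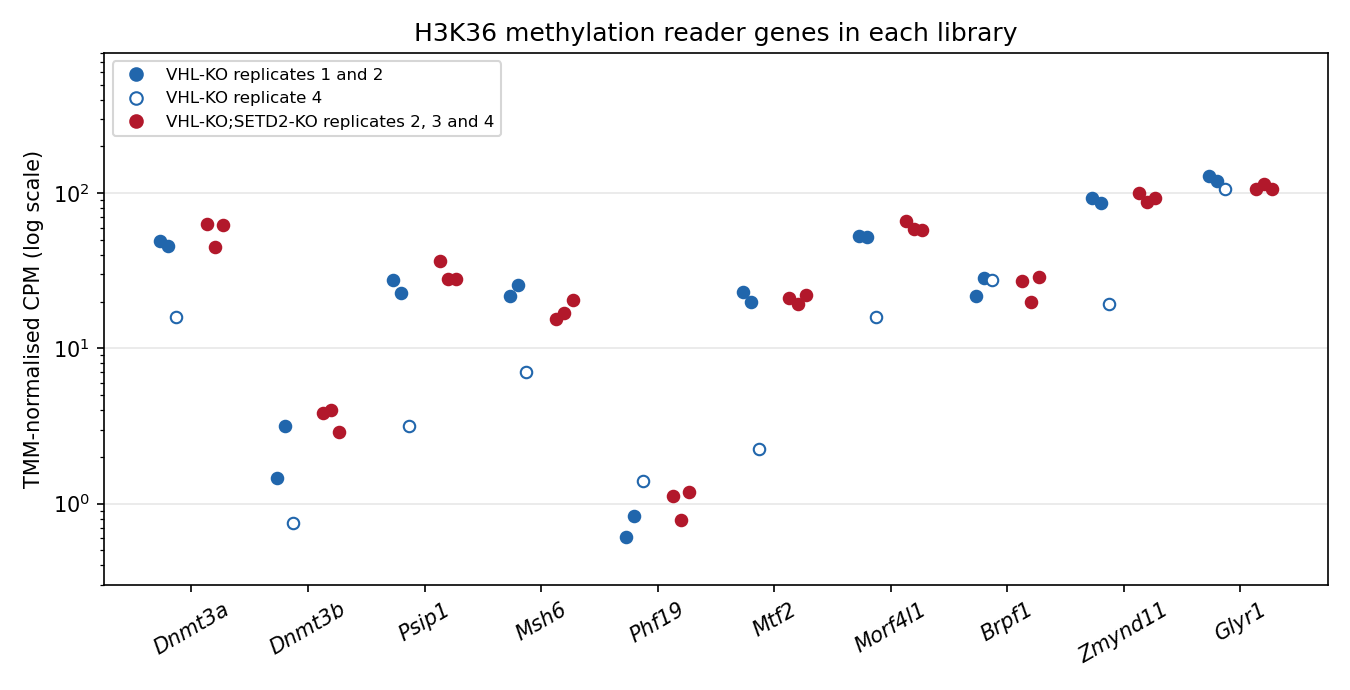
TMM-normalised CPM (log axis) of each of the 10 members in the 6 libraries, one point per library, with VHL-KO in blue and VHL-KO;SETD2-KO in red. The open circles mark VHL-KO-labelled replicate 4, which lies below all 5 others for 7 members, from 0.747 CPM for Dnmt3b to 19.3 CPM for Zmynd11, while Brpf1, Glyr1 and Phf19 do not share this.

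The values differed most in one library. In VHL-KO-labelled replicate 4, 7 members were lower than in each of the other 5 libraries and at less than 0.5 of their mean. The ratio was 0.106 for Mtf2, 0.111 for Psip1, 0.210 for Zmynd11 and 0.244 for Dnmt3b, and it was 0.928 for Glyr1, 1.10 for Brpf1 and 1.55 for Phf19. Among all tested genes 41.6% were lowest in that library and 39.98% were highest. Without it the median log2 fold change of the members was 0.14, against 0.04 for all genes then tested. Again 0 members were called, while 15.4% of 15000 genes were at an unadjusted edgeR p and 8.25% at an adjusted DESeq2 p, which 9 of the 10 members had.

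Groups without overlap were also counted. Psip1 and Morf4l1 were higher in every library labelled VHL-KO;SETD2-KO, which is 2 of 10 where 9.62% of tested genes did so. No member was lower in every such library, where 11.0% of tested genes were. Without VHL-KO-labelled replicate 4, Psip1 and Morf4l1 were still higher without overlap (2 of 10, against 20.4% of genes), and Msh6 and Glyr1 were then lower without overlap (2 of 10, against 21.5% of genes).

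**Figure D2:**
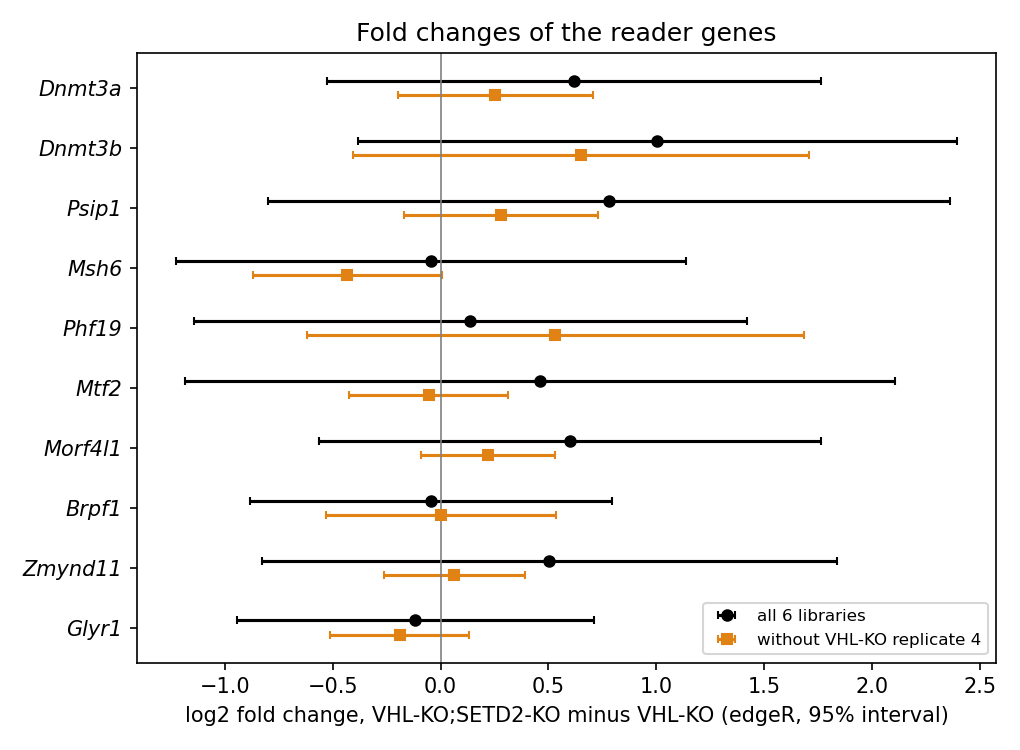
Log2 fold change of each member, VHL-KO;SETD2-KO minus VHL-KO, with 95% intervals from edgeR, over all 6 libraries (black circles) and without VHL-KO-labelled replicate 4 (orange squares). Every interval includes 0, and the one nearest to leaving it is that of Msh6 without that library, -0.87 to 0.0051.

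Dnmt3a and Dnmt3b are the de novo DNA methyltransferases, whose PWWP domains steer them to methylated H3K36. Dnmt3a (chr12:3806007-3914443, plus strand) was read at 49.3, 45.9 and 15.9 CPM under VHL-KO and at 63.1, 45.1 and 62.4 CPM under VHL-KO;SETD2-KO. The last group was high in replicates 2 and 4 and within the VHL-KO range in replicate 3. The means were 37.0 ± 18.4 and 56.9 ± 10.2 CPM (SD, n = 3 each), and the log2 fold change was 0.62 (SE 0.50, edgeR adjusted p = 0.695). Without VHL-KO-labelled replicate 4 it was 0.25 (95% interval -0.20 to 0.71). The summed endothelial markers were high in the same pair of replicates, 5014 and 4265 CPM against 1727 CPM in replicate 3, and their part in the level of Dnmt3a was not tested.

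Dnmt3b (chr2:153649450-153687730, plus strand) had few counts. They were 24, 34 and 8 under VHL-KO and 72, 71 and 46 under VHL-KO;SETD2-KO. As CPM these were 1.45, 3.14 and 0.747 against 3.82, 3.99 and 2.88, so the raw counts did not overlap but the scaled levels did. The log2 fold change was 1.01 (95% interval -0.38 to 2.40, edgeR adjusted p = 0.627), the largest among the members and one that also admits no change. It was 0.65 without VHL-KO-labelled replicate 4 and 1.69 without VHL-KO-labelled replicate 2. That last setting was the only one that left out a library and brought a member past the unadjusted thresholds with edgeR, and it did not hold after adjustment (adjusted p = 0.497). It made 1 of 10 members called where 9.71% of tested genes were. In the other such settings 0 of 10 were called, against 7.80% and 15.4% of genes without VHL-KO-labelled replicates 1 and 4, and 2.56%, 4.57% and 3.02% without VHL-KO;SETD2-KO replicates 2, 3 and 4. Reads that match Dnmt3c, a germline relative sharing 514 stretches of 50 bases with Dnmt3b transcripts and having no row of its own here, could add to these counts, and how such reads were counted is not given in the sources used here. The row Dnmt3b-ps1 held between 0 and 10 counts.

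The balance between the methyltransferases was compared without any library scaling. The log2 ratio of Dnmt3a to Dnmt3b counts was 5.06, 3.85 and 4.33 under VHL-KO and 4.04, 3.49 and 4.42 under VHL-KO;SETD2-KO. The ratio is of counts, not of levels per length, and the groups overlapped. Their means differed by -0.43 (exact two-sided permutation test over 20 splits, p = 0.5, where the smallest p possible is 0.1). The difference was -0.105 and -0.71 without VHL-KO-labelled replicates 1 and 2, -0.18 and -0.65 without VHL-KO;SETD2-KO replicates 3 and 4, and 0.14 with the replicate number as a block.

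Of 12 other genes of DNA methylation, all were tested and none was called. Dnmt1, the maintenance methyltransferase, was read at 26.5, 28.5 and 24.4 CPM under VHL-KO and at 32.1, 21.8 and 30.4 CPM under VHL-KO;SETD2-KO (log2 fold change 0.09, edgeR adjusted p = 0.936, and 0.03 without VHL-KO-labelled replicate 4). Uhrf1, which brings Dnmt1 to hemimethylated DNA, was read at 2.30, 2.12 and 3.73 CPM against 1.64, 1.29 and 1.94 CPM. Its groups did not overlap, with the lower values under VHL-KO;SETD2-KO, and the difference did not pass (log2 fold change -0.74, adjusted p = 0.650, and -0.45 without VHL-KO-labelled replicate 4). Dnmt3l, the catalytically inactive cofactor active in germ cells and listed among the other H3K36 readers, had 0 counts in 5 libraries and 2 in the sixth and was not tested. The median log2 fold change of the 12 genes was 0.14, and 0.03 without VHL-KO-labelled replicate 4. Tet2, which oxidises methylcytosine, was called by the unadjusted thresholds with that library left out, by edgeR (log2 fold change -0.71) and DESeq2, and in none of the other settings tried. It was read at 6.07 CPM in the library left out and at 26.4 to 56.3 CPM in the others.

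Psip1 encodes LEDGF/p75, a chromatin tether that links transcribed genes to the Kmt2a complex. The gene lies at chr4:83455680-83486459 on the minus strand. It was read at 27.7, 22.9 and 3.17 CPM under VHL-KO and at 36.3, 27.9 and 28.2 CPM under VHL-KO;SETD2-KO. All 3 of the latter were above all 3 of the former, though 27.7 and 27.9 CPM were nearly level. This gave a log2 fold change of 0.78 (SE 0.69, edgeR adjusted p = 0.717), and 0.28 (95% interval -0.17 to 0.73) without VHL-KO-labelled replicate 4. On the opposite strand Snapc3 shares 483 exon bases with Psip1, and whether counting used the strand is not given in the sources used here. Of the LEDGF partners, 4 of 5 were tested and 0 were called. Kmt2a, the histone H3K4 methyltransferase of that complex, was read at 65.7, 79.9 and 27.7 CPM against 85.1, 72.1 and 102 CPM (log2 fold change 0.58, adjusted p = 0.699, and 0.24 without VHL-KO-labelled replicate 4). Men1, the menin scaffold, was read at 0.185 to 1.40 CPM and did not reach the filter. Hdgfl2, a relative with the same domain pair and listed as Hdgfrp2, was read at 25.5 to 48.0 CPM with a log2 fold change of 0.02. Its highest value was in VHL-KO-labelled replicate 4, and without that library it was higher without overlap under VHL-KO;SETD2-KO (log2 fold change 0.35, edgeR adjusted p = 0.246).

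Msh6 is a mismatch repair protein, and its PWWP domain holds it on H3K36-methylated chromatin before replication. It lies at chr17:87975062-87990892 on the plus strand and shares 34 exon bases with Fbxo11 on the other strand. Levels were 21.9, 25.8 and 7.00 CPM under VHL-KO and 15.5, 17.0 and 20.5 CPM under VHL-KO;SETD2-KO. Replicates 1 and 2 of the first group were above every library of the second, and replicate 4 was below. Across all libraries the log2 fold change was -0.04 (95% interval -1.23 to 1.14, edgeR adjusted p = 0.981). Without VHL-KO-labelled replicate 4 it was -0.43 (95% interval -0.87 to 0.0051, edgeR adjusted p = 0.248), the lowest p of any member in that setting.

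Phf19 and Mtf2 are Polycomb-like proteins that bring Polycomb repressive complex 2, the H3K27 methyltransferase, to its sites. Phf19 (chr2:34893757-34914026, minus strand) had 10, 9 and 15 counts under VHL-KO and 21, 14 and 19 counts under VHL-KO;SETD2-KO. Its levels were 0.605, 0.831 and 1.40 CPM against 1.11, 0.787 and 1.19 CPM, and VHL-KO-labelled replicate 4 was the highest of all. For Phf19 the log2 fold change was 0.14 (95% interval -1.14 to 1.42), wide at counts of 9 to 21 per library, and 0.53 without VHL-KO-labelled replicate 4.

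Mtf2 lies at chr5:108065674-108109004 on the plus strand, with 395 exon bases shared with Tmed5 on the other strand. It was read at 23.2, 19.95 and 2.24 CPM under VHL-KO and at 21.1, 19.2 and 22.2 CPM under VHL-KO;SETD2-KO. The 5 other libraries spanned only 19.2 to 23.2 CPM, and VHL-KO-labelled replicate 4 was far below them. The log2 fold change went from 0.46 (SE 0.72) over all libraries to -0.05 (95% interval -0.42 to 0.31) without that library. The log2 ratio of Phf19 to Mtf2 counts was -5.19, -4.51 and -0.66 under VHL-KO and -4.21, -4.56 and -4.19 under VHL-KO;SETD2-KO. The difference of means, -0.87 (exact two-sided permutation test, p = 0.9), turned to 0.53 without VHL-KO-labelled replicate 4 (exact permutation p = 0.3).

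The 10 genes of Polycomb repressive complex 2 were all tested and none was called. Ezh1 and Ezh2 are its alternative catalytic subunits. Ezh1 was read at 49.8 to 75.0 CPM and Ezh2 at 0.747 to 6.83 CPM over the 6 libraries, with log2 fold changes of -0.04 and 0.73 and edgeR adjusted p of 0.972 and 0.727. They were 0.13 and 0.26 without VHL-KO-labelled replicate 4. Suz12, a core subunit, was read at 52.5, 49.0 and 4.01 CPM under VHL-KO and at 45.2, 45.5 and 46.2 CPM under VHL-KO;SETD2-KO. Eed, the subunit that binds methylated H3K27, was read at 19.6, 23.1 and 2.43 CPM against 20.1, 17.8 and 21.1 CPM. Both were low in the same library as Mtf2, and their log2 fold changes went from 0.38 and 0.39 to -0.16 and -0.12 without it. Phf1, the third Polycomb-like reader, was read at 29.0, 32.0 and 38.4 CPM against 42.0, 39.5 and 35.9 CPM (log2 fold change 0.24, adjusted p = 0.818, and 0.36 without that library). The median of the list was 0.31, and -0.02 without VHL-KO-labelled replicate 4.

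Morf4l1 encodes MRG15, a chromodomain protein shared by the Tip60 acetyltransferase and Sin3b deacetylase complexes. The gene lies at chr9:90091665-90114774 on the minus strand and shares 1499 exon bases with Gm26882 on the other strand. Morf4l1 stood at 52.7, 51.9 and 16.0 CPM under VHL-KO and 66.1, 58.9 and 58.0 CPM under VHL-KO;SETD2-KO, all 3 of the latter above the former. The means were 40.2 ± 21.0 and 61.0 ± 4.47 CPM (SD, n = 3 each), with a log2 fold change of 0.60 (SE 0.51, edgeR adjusted p = 0.703). It was 0.22 (95% interval -0.09 to 0.53) without VHL-KO-labelled replicate 4. The processed pseudogene Morf4l1-ps1 shares 857 stretches of 50 bases with Morf4l1 transcripts and was given 217, 176 and 34 counts against 291, 241 and 284. The row Morf4l1b, found by its symbol and with no shared sequence shown here, was given 54, 47 and 26 counts against 97, 91 and 82. These rows also had their lowest counts in VHL-KO-labelled replicate 4. How reads were divided between Morf4l1 and Morf4l1-ps1 is unknown, so the level of Morf4l1 is uncertain to that extent.

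None of 15 genes of the MRG15 complexes was called, with a median log2 fold change of 0.29, and 0.08 without VHL-KO-labelled replicate 4. Kat5, the Tip60 acetyltransferase, was read at 21.8, 20.1 and 39.7 CPM under VHL-KO and at 26.4, 24.0 and 24.2 CPM under VHL-KO;SETD2-KO. Sin3b, the scaffold of the deacetylase complex, was read at 39.8, 36.8 and 108 CPM against 38.0, 45.3 and 36.9 CPM. Both were highest in the library in which Morf4l1 was lowest, and their log2 fold changes were -0.13 and -0.62 (edgeR adjusted p = 0.915 and 0.697). Without that library both turned, to 0.24 for Kat5, whose groups then did not overlap, and to 0.06 for Sin3b (edgeR adjusted p = 0.362 and 0.844).

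Brpf1 is the scaffold of the MOZ and MORF acetyltransferases Kat6a and Kat6b and can also join Kat7 (HBO1). It lies at chr6:113307137-113324860 on the plus strand and shares 255 exon bases with Gm15492 on the other strand. Levels were 21.8, 28.4 and 27.7 CPM under VHL-KO and 27.1, 19.8 and 28.7 CPM under VHL-KO;SETD2-KO, with full overlap, and VHL-KO-labelled replicate 4 was within the range of the rest. The log2 fold change was -0.05 (95% interval -0.89 to 0.79, edgeR adjusted p = 0.971), and 0.001 without that library. Kat6a was read at 69.4, 87.9 and 13.0 CPM against 97.9, 69.6 and 103 CPM, and Kat6b at 25.7, 31.7 and 5.60 CPM against 32.2, 28.6 and 34.9 CPM. Kat7 was read at 39.4, 38.8 and 47.1 CPM against 44.3, 38.7 and 45.6 CPM. Kat6a and Kat6b were thus low in VHL-KO-labelled replicate 4, while Brpf1 and Kat7 were not. None of the 11 genes of these complexes was called, and their median was 0.25, and 0.07 without VHL-KO-labelled replicate 4.

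Zmynd11 encodes BS69, which recognises methylated H3K36 on the variant histone H3.3 and restrains elongation. The gene lies at chr13:9684833-9765330 on the minus strand and shares 691 exon bases with Gm36423 on the other strand. Zmynd11 levels were 92.7, 86.3 and 19.3 CPM under VHL-KO and 99.9, 87.9 and 93.7 CPM under VHL-KO;SETD2-KO. Apart from VHL-KO-labelled replicate 4 the values lay between 86.3 and 99.9 CPM and the groups overlapped. For Zmynd11 the log2 fold change was 0.51 (SE 0.58, edgeR adjusted p = 0.773), and 0.06 (95% interval -0.26 to 0.39) without that library.

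Glyr1, also called NPAC or LSD2-associated factor, is a PWWP reader that assists the demethylase Kdm1b (LSD2) on gene bodies. It lies at chr16:5013909-5049863 on the minus strand. Levels stood at 128 (replicate 1), 120 (replicate 2) and 107 (replicate 4) CPM under VHL-KO and 107, 115 and 106 CPM under VHL-KO;SETD2-KO. Its values lay close together in all libraries, and the log2 fold change was -0.12 (95% interval -0.95 to 0.71, edgeR adjusted p = 0.914). Without VHL-KO-labelled replicate 4 it was -0.19 (95% interval -0.51 to 0.13). Kdm1b was read at 37.9, 32.6 and 8.03 CPM against 26.4, 30.5 and 31.4 CPM (log2 fold change 0.17, adjusted p = 0.919), and it was low in the library in which Glyr1 kept its level. Without that library the direction turned to -0.26, with the lower values under VHL-KO;SETD2-KO and no overlap (edgeR adjusted p = 0.362).

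Of 20 other genes listed for H3K36 reader domains, 19 had a row and 18 were tested, and Hdgfl3 (listed as Hdgfrp3), a PWWP protein of the HDGF family, was the one called. It was read at 8.17, 8.22 and 2.05 CPM under VHL-KO and at 22.2, 12.9 and 18.6 CPM under VHL-KO;SETD2-KO, without overlap. By the unadjusted thresholds it was higher, with a log2 fold change of 1.54 (SE 0.57, edgeR adjusted p = 0.625), and 1.12 without VHL-KO-labelled replicate 4. The call was lost without VHL-KO;SETD2-KO replicate 2 (1.36, edgeR adjusted p = 0.980) and without VHL-KO;SETD2-KO replicate 4 (1.51, edgeR adjusted p = 0.982). Its values were again highest in the pair of libraries with high endothelial and podocyte markers, and their part in it was not tested. Pwwp2b was called higher when VHL-KO-labelled replicate 4 was left out, by edgeR and DESeq2, and in none of the other settings tried, and its log2 fold change turned from -0.20 over all libraries to 1.03 (edgeR). In that library it was read at 24.6 CPM against 4.18 to 12.0 CPM in the others. The median of the list was 0.36, and 0.11 without that library.

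**Figure D3:**
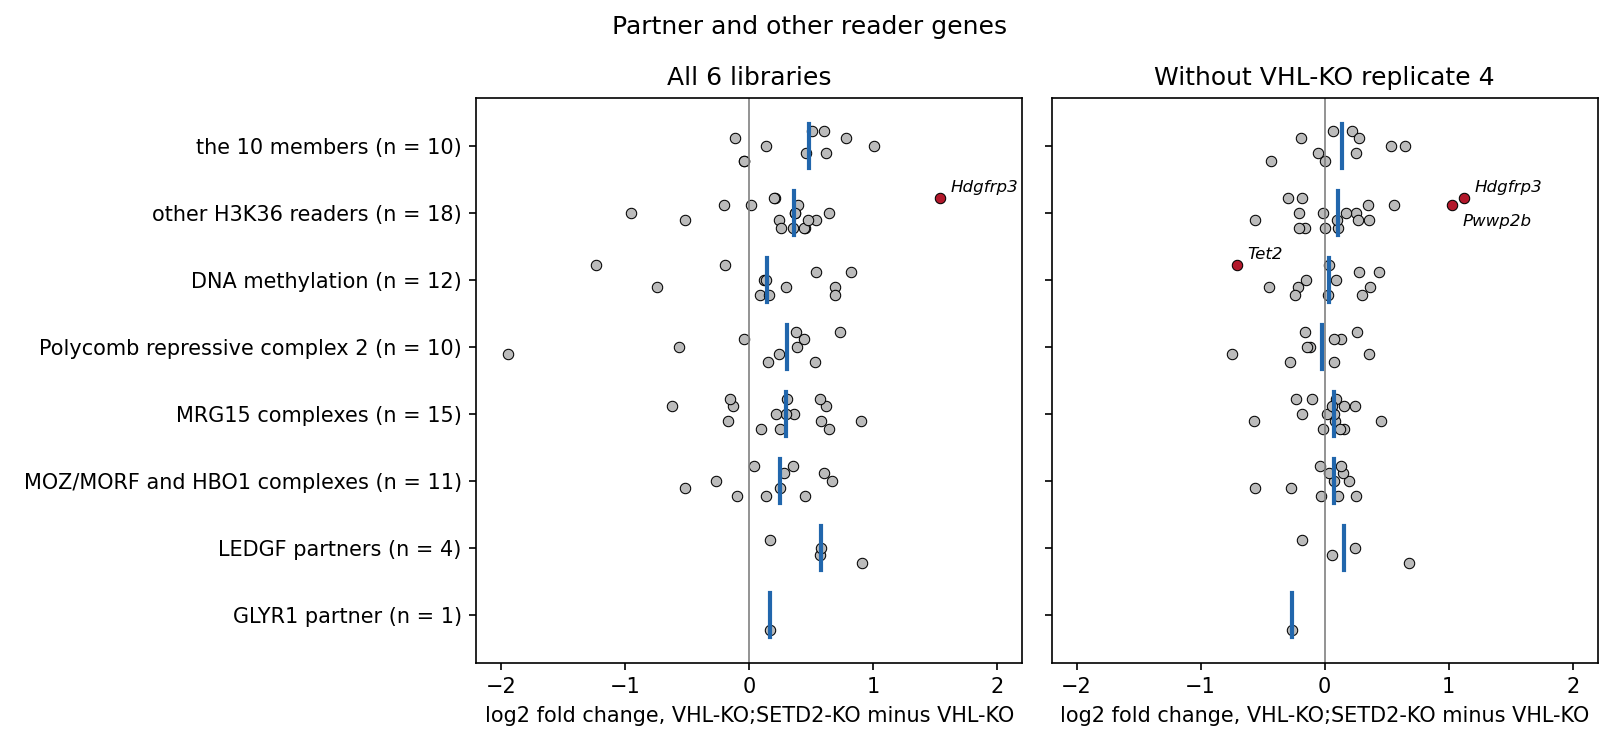
Log2 fold change (VHL-KO;SETD2-KO minus VHL-KO, edgeR) of each tested gene in the member, reader and partner lists, over all 6 libraries (left) and without VHL-KO-labelled replicate 4 (right). Blue bars are list medians and red points, with names, are genes at an unadjusted p under 0.05 and 1.5-fold. On the left this is Hdgfrp3 (1.54), and no member is red on either side.

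Levels of different members were compared per exon length. Under VHL-KO;SETD2-KO, Glyr1 came first at 13.0 ± 0.574 CPM per kb of exon, followed by Zmynd11 at 8.57 ± 0.548 (SD, n = 3 each). Morf4l1 (6.26 ± 0.458) and Psip1 (6.06 ± 0.940) came next and overlapped each other. Msh6 (4.07), Brpf1 (3.72), Mtf2 (3.66) and Dnmt3a (3.42) formed a run in which each neighbour overlapped the next. Dnmt3b (0.698) and Phf19 (0.204) were last and did not overlap any other member or each other. With the longest protein-coding transcript in place of all exons, Dnmt3a moved from rank 8 to rank 5 and Msh6 from rank 5 to rank 8, and Morf4l1 and Zmynd11 changed places, while Dnmt3b and Phf19 stayed last. Glyr1 then kept only a near tie for first, at 33.1 CPM per kb (range 32.1 to 34.8) against 32.4 (range 30.8 to 35.1) for Morf4l1. Under VHL-KO the mean order began with Glyr1 (14.1) and Zmynd11 (6.04), with Dnmt3b (0.348) and Phf19 (0.188) at the end.

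**Figure D4:**
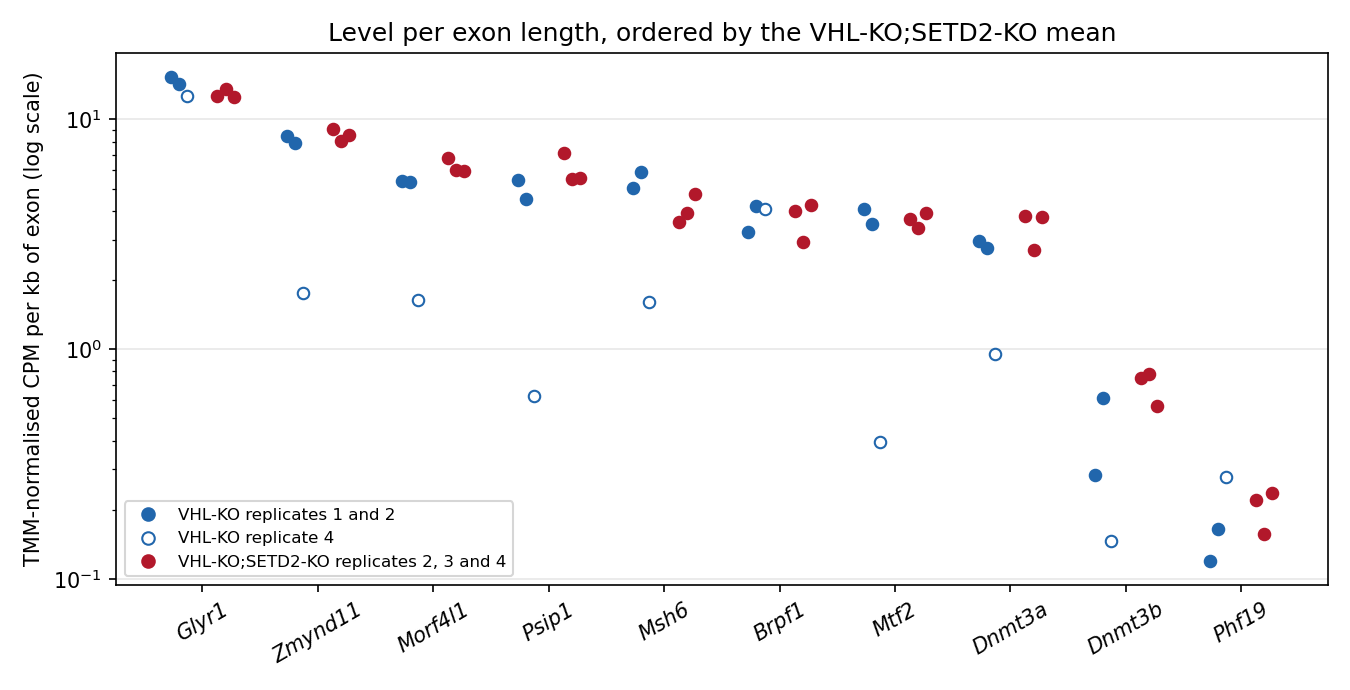
TMM-normalised CPM per kb of exon (log axis) of the 10 members, one point per library, ordered by the mean of the VHL-KO;SETD2-KO group. Glyr1 is first at 13.0 and Phf19 last at 0.204, while in VHL-KO-labelled replicate 4 (open circles) Brpf1 (4.09) lay above Zmynd11 (1.76) and Phf19 (0.278) above Dnmt3b (0.146).

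The likeness of patterns over the 6 libraries was measured as the mean absolute difference of log2 CPM after each gene was centred on its own mean, among 84 other members and listed genes. Zmynd11 was most like Morf4l2 (0.07), Mtf2 most like Brd8 (0.08) and Morf4l1 most like Pwwp2a (0.08). Msh6 was nearest to Nsd2, listed as Whsc1 (0.12), Psip1 to Brd8 (0.15), Glyr1 to Mrgbp (0.11), Brpf1 to Jade2 (0.12), Phf19 to Kat7 (0.21) and Dnmt3b to Morf4l1 (0.29). Without VHL-KO-labelled replicate 4, another gene was nearer for each of these 9 members. These are descriptions of 6 libraries and carry no test.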

How the data were processed

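RNA-seq of PTECs from 3 mice per label was analysed, with groups and replicate numbers taken from the sample labels. Per the study's methods, RNA was used for directional libraries sequenced as paired ends. The authors deposited raw counts per gene symbol. The submitters' processing notes name HISAT2 2.0.4 and GRCm38, and the counting program, its annotation and its use of strand are not given in the sources used here. Columns of single samples that went unused numbered 0.

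TMM factors (0.83 to 1.16) and quasi-likelihood tests came from edgeR 4.0.16 (R 4.3.3) and covered 14611 of 46095 genes after filterByExpr, with the label as the only factor and Benjamini-Hochberg adjustment over all of them. The study's methods do not say whether p was adjusted, so both were used, with a fold change of at least 1.5. SEs are the fold change divided by the root of the F statistic. Intervals are 95%. DESeq2 1.42.0 and limma 3.58.1 were alternatives, with other normalizations, filters and library sizes, a replicate block, and each library left out in turn. Added after seeing the data were DESeq2 without VHL-KO-labelled replicate 4 and the length of the longest coding transcript. Ratios of genes used a pseudocount of 0.5. Exon lengths, positions and shared 50-base stretches came from GENCODE vM21, and promoters from RefSeq (GRCm38.p6). The fits were tested on simulated data. A floor of 3 counts covers counting error alone, as PCR copies could not be told from separate molecules.

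The members, lists and tests were chosen with earlier results of these data known. Named were all members, listed genes at an unadjusted p under 0.05 (up to 3 per list), their direct partners, the nearest gene in pattern, pseudogene rows, Setd2 and Vhl. Tet2, Pwwp2b, Morf4l1b, Dnmt3c and overlapping neighbours were named after their values were seen. Whether 1 library stands for 1 mouse follows from the series' description, which names 3 mice per genotype. Some listed genes that the rule would name, and the results that need them, are not reported here.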

Additional observations from a re-analysis of the deposited data

How the results depend on the processing

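Over 15 alternative settings, 148 alternative fold changes of the members were computed, of which 136 kept their direction and 12 reversed, and 0 members passed an adjusted p in any of them. Without each library in turn, the number of members called at an unadjusted p ranged from 0 to 1, the 1 being Dnmt3b without VHL-KO-labelled replicate 2, where 9.71% of genes were called (2.56% to 15.4% over these settings). The median of the members ranged from 0.14 to 1.08 over all settings. Msh6 turned to 0.14 by limma-voom and to 0.40 with the replicate block, and ranged from -0.43 to 0.29 without single libraries. Brpf1 turned to 0.011 with no filter and ranged from -0.14 to 0.11 without single libraries. Phf19 ranged from -0.10 (VHL-KO-labelled replicate 1 left out) to 0.53. Mtf2 ranged from -0.055 (VHL-KO-labelled replicate 4 left out) to 0.91 without single libraries. It was 1.00 by limma-voom and 1.65 with the replicate block, and turned to -0.062 by DESeq2 with VHL-KO-labelled replicate 4 left out. The cause was not tested. Listed readers and partners called numbered 2, against 0 to 4 without single libraries (4 with VHL-KO-labelled replicate 4 left out), 4 by DESeq2 without that library and 1 with the replicate block. The ratio of Dnmt3a to Dnmt3b differed by 0.14 with the replicate block, and that of Phf19 to Mtf2 ranged from -1.73 to 0.53 without single libraries. Numbers 2 and 4 occur under both labels, but deviations of same-numbered libraries correlated at 0.165 and -0.319, so they were not taken as pairs. A filter of 10 counts in every library removed Dnmt3b and Phf19, whose depth limits what can be said. Of the members, 1 had an adjusted p in DESeq2 with all libraries.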
